A study of Mus musculus with 21 samples.

Results

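The regions described here are 653 domains of monoubiquitinated histone H2B (H2Bub1) in mouse embryonic stem (ES) cells that were listed again when Fbxl19 was knocked down in ES cells, when it was overexpressed and after differentiation, but not when knocked-down cells were differentiated. They were chosen by their presence in deposited domain lists: an ES domain longer than 2000 bp that overlapped, by at least 1 bp, a domain of the knockdown ES, overexpression and differentiated lists and no domain of the differentiated knockdown list. The ES list held 2937 domains, 2561 of them over 2000 bp. The 653 were the most frequent of the 15 listing patterns found among these, at 25.5%. Because the lists chose the regions, lengths, scores and presence in the 5 H2Bub1 lists are given as descriptions, and absence from a list does not measure how much H2Bub1 was there.

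H2Bub1 is placed on chromatin by the ubiquitin ligase Rnf20 with its partner Rnf40, and typically marks the transcribed part of active genes, where it accompanies elongating RNA polymerase. Fbxl19 combines an F-box, the motif that links proteins to a ubiquitin ligase complex, with a CXXC domain, which binds unmethylated CpG such as that of CpG islands at many promoters. In ES cells, H2Bub1 is known to increase on differentiation and to be needed for it. The series title addresses whether Fbxl19 brings Rnf20 to CpG islands.

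All cells were of the mouse J1 ES line, for which the protocol names serum and leukemia inhibitory factor, and H2Bub1 was profiled by chromatin immunoprecipitation and sequencing (ChIP-seq) in 12 of the 21 samples. These were 2 samples of ES cells with Fbxl19 knocked down (KD ES), 3 of an ES clone overexpressing tagged Fbxl19 more than 5-fold (OE-high), 2 of cells differentiated for 4 days, 2 of knocked-down cells differentiated for 4 days (KD differentiated), and 3 of ES cells. Fbxl19 carried a flag-biotin tag and was pulled down with streptavidin beads in 2 samples of the OE-high clone and in 2 samples of an OE-low clone, which expressed it below the endogenous level in cells that contain the biotin ligase BirA. Rnf20 was pulled down in the same way in 1 sample of cells with BirA. The remaining 4 samples were inputs, 1 each titled for ES, KD ES, overexpressing and differentiated cells. No input is titled for KD differentiated cells, and no sample is titled as a pull-down from cells with BirA alone. Each overexpression line was a selected clone, the labels do not describe the knockdown or the differentiation, and Fbxl19 levels and cell type markers were not checked here.

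Each list except that of Rnf20 is named as combined, so there was 1 list per group, no spread between samples and no p-value. Intervals are exact Clopper-Pearson 95% intervals over regions, which cover counting error only, and regions are not replicates. The H2Bub1 lists held 1813 domains in KD ES, 7216 in OE-high, 5125 in differentiated, 1090 in KD differentiated and 2937 in ES cells. The peak lists held 13669 OE-high Fbxl19, 2213 OE-low Fbxl19 and 8606 Rnf20 peaks. Track lines carry a number with the suffix M, of unstated meaning, which was 41 for KD differentiated, 36 for differentiated, 46 for KD ES and OE-high, and 60 for ES cells. Read depth per sample is unknown. Positions are on mm9, counted from 1, and genes were not assigned to them.

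Absence from the KD differentiated list was common among ES domains in general. Of the 2561 ES domains over 2000 bp, 55.5% were in the KD ES list, 93.8% in the OE-high list, 79.1% in the differentiated list and 29.9% in the KD differentiated list. Thus 1795 (70.1%) were absent from the last of these. Among the 1237 that were in the KD ES, OE-high and differentiated lists, the absent ones were the 653 described here (52.8%), and the other 584 were in all 5 lists. Among the 771 that were in the OE-high and differentiated lists but not in KD ES, 617 (80.0%) were absent from the KD differentiated list too. Those 584 and 617 domains serve as comparisons below, since the first set differs from the 653 only in the KD differentiated list and the second only in the KD ES list.

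The 653 domains lay between these sets in length and ES score. Their ES lengths had a median of 11400 bp, with quartiles of 5400 and 24800 bp and a longest of 242200 bp. The domains in all 5 lists had a median of 15400 bp and those absent from both knockdowns 7400 bp. The authors' ES score, whose formula the labels do not give, had a median of 9.68 in the 653 domains, 10.97 in the domains of all 5 lists and 8.23 in those absent from both knockdowns. Together the 653 domains covered 15.5 Mb.

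Domains with lower scores were absent from the KD differentiated list more often. The 1237 domains were split into 4 classes by their score in the differentiated list, a description of the values behind the choice. Of the 310 in the highest class, with scores from 17.4 to 161, 77 (24.8%, interval 20.1 to 30.0) were among the 653. In the lowest class, with scores from 7.01 to 10.04, they were 226 of 309 (73.1%, interval 67.8 to 78.0). Split by ES score instead, the shares were 32.3% in the highest class and 67.0% in the lowest. The 2 middle classes lay between these in both splits.

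**Figure D1:**
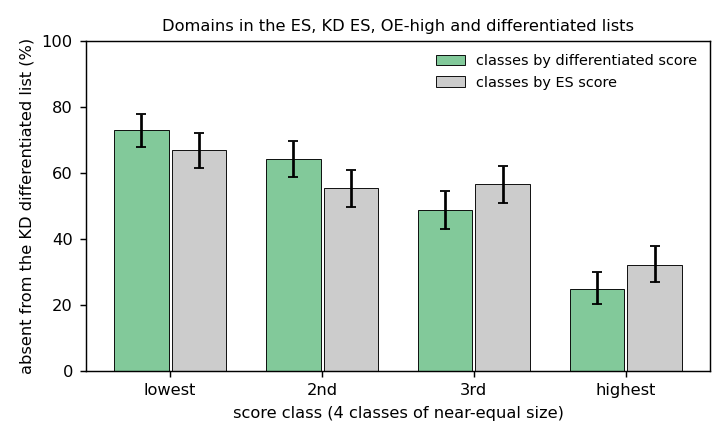
Share of domains absent from the KD differentiated list (y axis, percent) in 4 classes of score (x axis), among the 1237 ES domains over 2000 bp that were also in the KD ES, OE-high and differentiated lists. Bars are shares by differentiated (green) or ES (grey) score and whiskers exact 95% intervals; the share was 24.8% in the highest and 73.1% in the lowest class of differentiated score.

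The distance from the 653 domains to the nearest KD differentiated domain is given as a description, since the choice of domains removed every overlap. It had a median of 455 kb. It was at most 1 kb for 3 of the 653 domains, at most 10 kb for 9 and at most 100 kb for 115, and 211 had none within 1 Mb. Of the 653, 20 (3.06%) met a differentiated domain that a KD differentiated domain touched elsewhere along it. The domains in all 5 lists had in the KD differentiated list a median 0.489 of their differentiated length.

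The nearest cases show how close the choice could be. On chromosome 17 the domain from 21090600 to 21093399 and on chromosome 9 that from 72964200 to 72968999 each lay 400 bp from a KD differentiated domain, and on chromosome 11 that from 50011000 to 50105999 lay 800 bp away. On the other side of the choice, a domain on chromosome 12 from 55960000 to 55964199 overlapped a KD differentiated domain by 200 bp, the width of the grid on which domain ends lie, and so belongs to the domains in all 5 lists. The next smallest overlaps were 400 bp of the domain on chromosome 11 from 22871600 to 22882599 and 1600 bp of that on chromosome 5 from 23215200 to 23218399. The 3 domains farthest from any KD differentiated domain were on chromosome X from 55283800 to 55290399, at 15915 kb, and on chromosome 4 from 21775000 to 21799799 and from 105987800 to 106017999, at 10355 and 10274 kb.

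The limit of 2000 bp cut a further 46 domains of the same pattern. Of these, 8 had exactly 2000 bp, among them domains on chromosome 1 from 58559800, chromosome 10 from 59412600 and chromosome 11 from 17079600. Just inside, 5 domains had 2200 bp. On chromosome 12 the one from 37102800 to 37104999 was as short in the other lists, with 2200 bp in KD ES and 2400 bp in both OE-high and differentiated cells. In contrast, the one on chromosome 11 from 45700800 to 45702999 lay in domains of 41800 bp in KD ES, 51400 bp in OE-high and 51800 bp in differentiated cells. Another, on chromosome 17 from 79334200 to 79336399, had 7000 bp in KD ES, 23000 bp in OE-high and 20400 bp in differentiated cells, and an OE-high Fbxl19 peak at its end.

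In KD ES cells the 653 domains had about their ES length, and in OE-high and differentiated cells most were longer. The summed length of the overlapping domains had a median of 13600 bp in KD ES, 30000 bp in OE-high and 25200 bp in differentiated cells, against 11400 bp in ES cells. Per domain the median ratio to the ES length was 1.03 in KD ES (interval of the median 1.01 to 1.05), 1.84 in OE-high (1.68 to 1.98) and 1.46 in differentiated cells (1.30 to 1.63). The domain was longer in KD ES in 369 of 653 (56.5%), in OE-high in 532 (81.5%) and in differentiated cells in 460 (70.4%). Over all ES domains over 2000 bp that were in the list concerned, 54.8% were longer in KD ES, 80.5% in OE-high and 72.8% in differentiated cells, so these shares were near the background. At least 2 times the ES length was reached by 86 domains in KD ES, 300 in OE-high and 250 in differentiated cells. In OE-high and differentiated cells the counts were 203 and 172 of the 584 domains in all 5 lists. They were 413 and 362 of the 617 absent from both knockdowns. The median ratios were 1.37 and 1.23 in the first of these sets, and 3.93 and 2.81 in the second. The 653 thus lay between the comparison sets, which also differed in ES length.

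**Figure D2:**
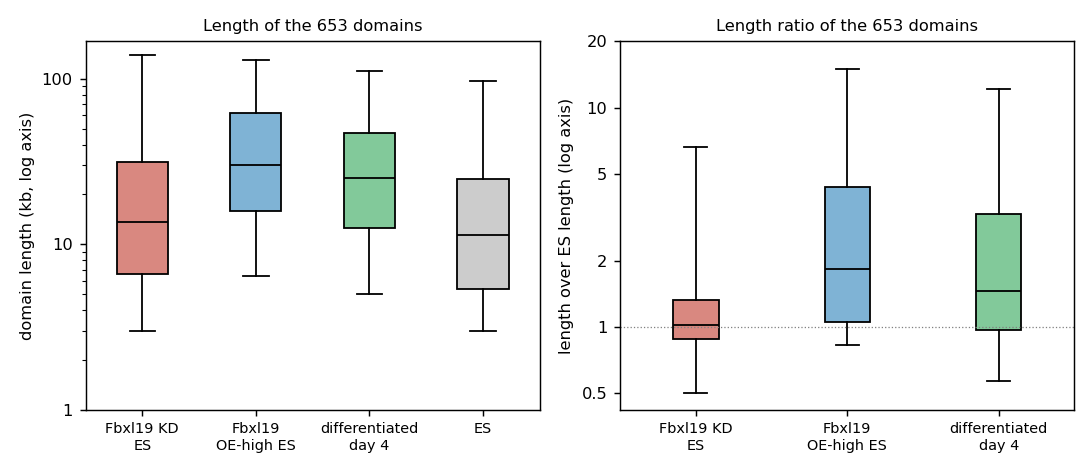
Length in kb (left, log axis) and length over ES length (right, log axis) of the 653 domains in the KD ES, OE-high, differentiated and ES H2Bub1 lists. Boxes show medians and quartiles and whiskers the 5 and 95 percentiles over domains; the median ratio was 1.03 in KD ES, 1.84 in OE-high and 1.46 in differentiated cells.

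The gain in length was greatest in the shortest ES domains. Among the 131 domains of 2 to 5 kb the median ratio was 1.25 in KD ES, 5.79 in OE-high and 4.11 in differentiated cells. In the 201 domains of 20 kb and over it was 1.01 in KD ES, 1.08 in OE-high and 0.990 in differentiated cells, where 94 were longer and 104 shorter than in ES cells. The ES length enters both the class and the ratio, so this is a description. Neighbouring ES domains also joined: 95 of the 653 shared their KD ES domain with another ES domain, 134 their OE-high domain and 114 their differentiated domain.

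Most of each domain's ES span was listed again in the 3 other states. The covered share of the ES span had a median of 97.9% in KD ES, 100% in OE-high and 98.0% in differentiated cells. Under 50% was covered in 42 domains in KD ES, 13 in OE-high and 28 in differentiated cells. The full span was covered in 280 domains in KD ES, 335 in OE-high and 266 in differentiated cells. The comparison sets had similar values. In the 584 domains of all 5 lists the medians were 98.4%, 100% and 98.8%, with 55, 26 and 44 domains under 50%. In the 617 absent from both knockdowns they were 100% in OE-high and 98.9% in differentiated cells, with 9 and 22 domains under 50%.

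Of the 6 longest domains, 3 were listed in several pieces in differentiated cells, while in KD ES each was a single domain. On chromosome 10 the domain from 62245000 to 62487199 was 253800 bp in KD ES, 200800 bp in 4 pieces in OE-high and 86600 bp in 4 pieces in differentiated cells, against 242200 bp in ES cells. It also held the most Fbxl19, with 10 OE-high peaks, 4 OE-low peaks and 11 Rnf20 peaks. On chromosome 19 the domain from 4741400 to 4966799 was 257800 bp in KD ES, 108800 bp in 4 pieces in OE-high and 58200 bp in 2 pieces in differentiated cells, against 225400 bp in ES cells. In differentiated cells 35.8% of the ES span of the domain on chromosome 10 was covered, and 25.8% of that on chromosome 19.

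The domain on chromosome 11 from 8323800 to 8554399 was 238600 bp in KD ES, 225400 bp in OE-high and 128400 bp in 3 pieces in differentiated cells, against 230600 bp in ES cells. In the other 3, at least 87.3% of the ES span was covered in differentiated cells. On chromosome 1 the domain from 120729200 to 120950599 was 227200 bp in KD ES, 223400 bp in OE-high and 195200 bp in differentiated cells, against 221400 bp in ES cells. The domain on chromosome 15 from 61869200 to 62082399 was 236800, 219400 and 206400 bp in KD ES, OE-high and differentiated cells, and 213200 bp in ES cells. That on chromosome 7 from 140121400 to 140317999 was within 2000 bp of its ES length of 196600 bp in all 3 states, and 4436 kb separated it from the nearest KD differentiated domain.

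The domains whose lowest score over the 4 lists was highest were short. The first of them lay on chromosome 1 from 88199800 to 88207799 and was 5200 bp in KD ES, 7600 bp in OE-high and 7400 bp in differentiated cells, against 8000 bp in ES cells, with 4 OE-high Fbxl19 peaks, 1 Rnf20 peak and an Fbxl19 summit at both ends. Next was chromosome 17 from 26640600 to 26645399, with 2200 bp in KD ES, 4800 bp in OE-high and 3200 bp in differentiated cells, against 4800 bp in ES cells. It had an OE-high Fbxl19 summit within 1 kb of both ends. Its right end, 26645399, was the same in all 4 lists and lay within the peak from 26644873 to 26646333, while its left end lay farther in, at 26643200 in KD ES and 26642200 in differentiated cells, against 26640600 in ES cells.

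The domain on chromosome 19 from 18787600 to 18793199 was 4600 bp in KD ES, 6400 bp in OE-high and 6200 bp in differentiated cells, against 5600 bp in ES cells, and an Fbxl19 and an Rnf20 peak lay at its start. On chromosome 17, that from 17141000 to 17147799 was 6200, 6000 and 5000 bp in KD ES, OE-high and differentiated cells, and 6800 bp in ES cells. A pair of others were short in ES cells and part of a longer OE-high domain. The one on chromosome 17 from 85187800 to 85189999, of 2200 bp in ES cells, lay in an OE-high domain of 20800 bp and a differentiated one of 17400 bp. The one on chromosome 4 from 108520400 to 108523399 lay in an OE-high domain of 40400 bp but had 4800 bp in differentiated cells, against 3000 bp in ES cells.

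Fbxl19 and Rnf20 peaks, which the choice of domains did not use, lay in many of the 653 domains. OE-high Fbxl19 peaks were in 504 (77.2%, interval 73.8 to 80.3), an OE-low Fbxl19 peak in 116 (17.8%, 14.9 to 20.9) and an Rnf20 peak in 280 (42.9%, 39.0 to 46.8). Over all 2561 ES domains over 2000 bp these shares were 70.8%, 15.8% and 40.1%. The 653 domains held 786 OE-high Fbxl19 peaks, with 1 peak in 362 domains, 2 in 73 and 3 or more in 69. None of the 3 peak lists is labelled as from differentiated cells, so they give no Fbxl19 or Rnf20 position after differentiation.

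Fbxl19 and Rnf20 were mostly at the same place when both were present. Overlapping OE-high Fbxl19 and Rnf20 peaks lay in 228 of the 653 domains (34.9%), both but apart in 25, Fbxl19 alone in 251 (38.4%), Rnf20 alone in 27 and neither in 122 (18.7%). Rnf20 was present in 253 of the 504 domains with OE-high Fbxl19 (50.2%, interval 45.7 to 54.7) and in 27 of the 149 without it (18.1%, 12.3 to 25.3). The comparison sets had the same order, with Rnf20 in 55.1% of the domains of all 5 lists with OE-high Fbxl19 and 18.2% of those without it, and in 37.3% and 11.5% for the domains absent from both knockdowns. Overlapping peaks lay in 41.3% of the domains in all 5 lists and 23.2% of those absent from both knockdowns. Both kinds of peak were more frequent in long domains. Among the 653, OE-high Fbxl19 lay in 67.2% of domains of 2 to 5 kb and 88.1% of those of 20 kb and over. For Rnf20 these shares were 36.6% and 58.7%. Presence of both was not compared within length classes. Of the 116 domains with an OE-low peak, 115 also had an OE-high peak.

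Compared with the domains in all 5 lists, a slightly smaller share of the 653 carried Fbxl19 and Rnf20 peaks, and they were also shorter. Per Mb of domain, OE-high Fbxl19 had the reverse order. It had 50.8 peaks per Mb in the 653, 48.6 in all 5 lists and 56.5 in those absent from both knockdowns. For Rnf20 these values were 35.6, 36.6 and 25.4, and for OE-low Fbxl19 8.79, 9.80 and 7.80, in the order of the shares. OE-high Fbxl19 peaks were found in 77.2% of the 653 domains and in 83.0% of the domains in all 5 lists, a difference of -5.87 percentage points (interval -10.4 to -1.30). For Rnf20 the shares were 42.9% and 48.8%, a difference of -5.92 (-11.6 to -0.248), and for OE-low Fbxl19 17.8% and 22.4%, a difference of -4.67 (-9.27 to -0.0880). With shares weighted by 4 length classes, the intervals took in 0, at -3.89 (-8.62 to 0.966) for OE-high Fbxl19 and -3.61 (-9.33 to 2.08) for Rnf20. The OE-low difference was not weighted, and its interval took in 0 within each length class. Weighted by classes of differentiated score, the Fbxl19 difference was -5.90 (-10.9 to -0.389) and that for Rnf20 -4.63 (-11.2 to 1.89). Within the classes of ES score, from lowest to highest, the OE-high Fbxl19 difference was -3.48, 4.47, -10.3 and -4.57. Only the interval of -10.3 (-18.8 to -1.38) did not take in 0. For Rnf20 it was 0.398, 1.53, -6.62 and -5.52, and each interval took in 0. Without chromosomes 1, 11 and 17 the Fbxl19 difference was -1.32 (-7.26 to 4.81), and with 50% of the ES domain to be covered for presence in a list it turned to 2.58 (-2.61 to 7.99).

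Compared with the domains absent from both knockdowns, the 653 carried Rnf20 more often. An Rnf20 peak lay in 42.9% of the 653 domains and in 29.7% of the domains absent from both knockdowns, a difference of 13.2 percentage points (interval 7.84 to 18.5). Weighted by length class it was 9.97 (4.32 to 15.5). The largest gap was among domains of 2 to 5 kb, with 36.6% of 131 and 20.4% of 206. There the difference was 16.3 (5.97 to 26.6). In the longer classes, from shortest to longest, it was 5.47 (-4.94 to 15.8), 7.88 (-3.71 to 19.1) and 11.2 (-0.532 to 22.7). Each of these intervals included both signs. OE-high Fbxl19 peaks were in 77.2% and 70.3%, a difference of 6.84 (1.89 to 11.8) that was 3.23 (-1.60 to 8.16) when weighted by length class, and OE-low peaks in 17.8% and 11.2%, a difference of 6.58 (2.61 to 10.5). Limiting each list to its 1090 highest scores left 56 domains and turned the Rnf20 difference to -10 (-37.3 to 20.9) and the Fbxl19 difference to -9.40 (-23.3 to 17.3). ES scores were higher in the 653, with medians of 9.68 and 8.23, and neither difference was weighted by score class. With the top 50% of ES domains by score, the Rnf20 difference was 12.9 (3.89 to 21.6). The OE-high Fbxl19 difference was then 1.42 (-5.63 to 9.06).

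**Figure D3:**
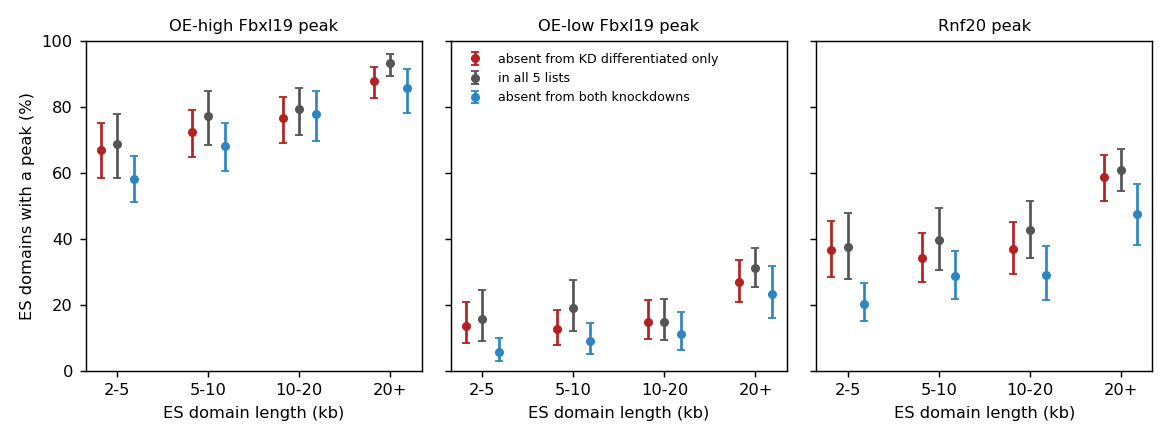
Share of ES domains with an OE-high Fbxl19, OE-low Fbxl19 or Rnf20 peak (y axis, percent) by ES domain length (x axis, kb), in the 653 domains absent from the KD differentiated list only (red), the 584 in all 5 lists (grey) and the 617 absent from both knockdowns (blue). Points are shares and whiskers exact 95% intervals; among domains of 20 kb and over an OE-high Fbxl19 peak was in 88.1%, 93.4% and 85.8%, and an Rnf20 peak in 58.7%, 61.0% and 47.5%.

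Peak scores were compared where a peak was present. The best OE-high Fbxl19 score per domain had a median of 12.2 in the 653 domains (quartiles 9.59 and 15.7), 12.2 in the domains of all 5 lists and 11.8 in those absent from both knockdowns. For Rnf20 the medians were 81.5, 96.0 and 76.1. Scores are the authors' own values for each peak.

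The 6 domains with the most OE-high Fbxl19 peaks were all of 63000 bp or more in ES cells. After the domain on chromosome 10 named above came chromosome 7 from 134334000 to 134417799 and chromosome 4 from 132566600 to 132634799, with 8 OE-high Fbxl19 peaks each. The first had 83000 bp in KD ES, 69600 bp in 3 pieces in OE-high and 49400 bp in 4 pieces in differentiated cells, against 83800 bp in ES cells. The second had 68000, 69800 and 67000 bp in KD ES, OE-high and differentiated cells, and 68200 bp in ES cells.

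Domains on chromosome 2 from 165606400 to 165725399 and on chromosome 12 from 85499000 to 85561999 held 7 OE-high Fbxl19 peaks each. Rnf20 had 5 peaks in the domain on chromosome 2 and no peak in that on chromosome 12. On chromosome 19 the domain from 6046400 to 6118799 held 6 OE-high Fbxl19, 2 OE-low Fbxl19 and 2 Rnf20 peaks. It was 98400 bp in KD ES, 62600 bp in 3 pieces in OE-high and 68800 bp in 2 pieces in differentiated cells, against 72400 bp in ES cells.

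Fbxl19 in both clones together with Rnf20 was found in 77 of the 653 domains. The same count was not made for other ES domains, so 77 has no background here. Among the 77 domains, the strongest OE-low peak lay on chromosome 1 from 162969904 to 162971222, with a score of 20.2. Its domain, from 162914000 to 162975199, had 6200 bp in KD ES, a stretch that held this peak, 85000 bp in OE-high and 36800 bp in differentiated cells, against 61200 bp in ES cells. On chromosome 4 the domain from 3758000 to 3762799 ended at the same base in all 4 lists, and an OE-low, an OE-high and an Rnf20 peak overlapped that end. Its length was 18400 bp in KD ES, 9400 bp in OE-high and 8400 bp in differentiated cells, against 4800 bp in ES cells, so the lists differed at its start alone.

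The other 2 were on chromosome 15 from 102496800 to 102502999, with 8000, 10400 and 10600 bp in KD ES, OE-high and differentiated cells and 6200 bp in ES cells, and on chromosome 7 from 13589200 to 13630399. The domain on chromosome 7 was shorter in each state, with 22400 bp in KD ES, 25200 bp in OE-high and 15200 bp in differentiated cells, against 41200 bp in ES cells. At the other extreme, 122 domains had no peak of any of the 3 lists. The longest of them ran on chromosome 17 from 10396000 to 10518599, with 116200 bp in KD ES, 135200 bp in OE-high and 125600 bp in differentiated cells, against 122600 bp in ES cells. Next was chromosome 7 from 150429400 to 150482399, with 53800 bp in KD ES, 58600 bp in OE-high, and 53000 bp in both differentiated and ES cells. The domain on chromosome 17 from 26274800 to 26322199 followed, with 40000, 48800 and 55000 bp in KD ES, OE-high and differentiated cells, and 47400 bp in ES cells.

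Fbxl19 summits were concentrated at the ends of the 653 domains, mostly at a single end. An OE-high Fbxl19 summit lay within 1 kb of an end in 392 of them (60.0%, interval 56.2 to 63.8), against 55.2% over all 2561 ES domains over 2000 bp, 67.1% in the domains of all 5 lists and 56.9% in those absent from both knockdowns. It lay at the start only in 192, at the end only in 184 and at both ends in 16. Of the 818 OE-high peaks in or within 1 kb of the 653 domains, 430 (52.6%) had their summit within 1 kb of an end, inside or outside, while 15.6% of the domains' length plus 1 kb on either side is that near to an end. In bins of 500 bp, summits were densest just inside the end, with 338 per Mb, and had 161 per Mb in the bin just outside and 23.0 per Mb in the bin that begins 4 kb inside.

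**Figure D4:**
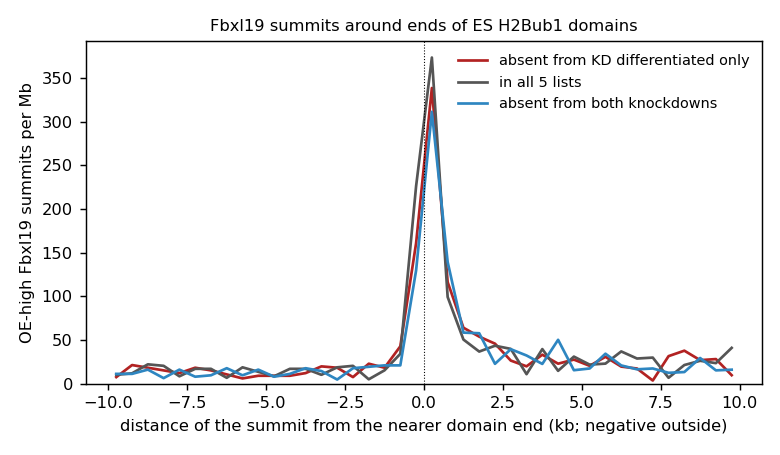
OE-high Fbxl19 summits per Mb (y axis) by distance from the nearer end of the ES domain (x axis, kb, negative outside, bins of 500 bp), in the 653 domains absent from the KD differentiated list only (red), the domains in all 5 lists (grey) and those absent from both knockdowns (blue). Lines join the values of the bins; in each set summits were densest in the first 500 bp inside the end, at 338 per Mb in the 653 domains.

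Rnf20 was more often at the Fbxl19 end than at the opposite end. The opposite end lacked an Fbxl19 summit by choice, and Rnf20 peaks mostly overlapped Fbxl19 peaks where both were present. The contrast thus in part restates that overlap. Of the 376 domains with an Fbxl19 summit at 1 end only, 140 (37.2%, interval 32.3 to 42.3) had an Rnf20 midpoint within 1 kb of that end and 9 (2.39%, 1.10 to 4.50) at the opposite end. The same counts were 159 and 17 of 370 in the domains of all 5 lists, and 95 and 6 of 340 in those absent from both knockdowns. For the 653 domains the share at the Fbxl19 end thus lay between those of the comparison sets, which were 43.0% and 27.9%.

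The Fbxl19 end was also nearer to its ES position in the other lists than the opposite end, a comparison chosen after the lists had been seen. In differentiated cells it lay within 1 kb of its ES position in 310 of the 376 domains (82.4%), and the opposite end in 88 (23.4%). The Fbxl19 end moved less than the opposite end in 313 domains and more in 52, with 11 equal, a share of 85.8% of those that differed (interval 81.7 to 89.2). The median distance from the ES position was 200 bp at the Fbxl19 end and 5700 bp at the opposite end. The Fbxl19 end was farther out by over 1 kb in 53 domains and farther in by over 1 kb in 13, against 230 and 58 at the opposite end.

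The Fbxl19 end was the nearer one in OE-high and KD ES cells too. In OE-high cells 290 Fbxl19 ends (77.1%) and 70 opposite ends (18.6%) lay within 1 kb of their ES position, and 80 Fbxl19 ends and 276 opposite ends lay farther out by over 1 kb. In KD ES cells 320 Fbxl19 ends (85.1%) and 170 opposite ends (45.2%) were within 1 kb. There the Fbxl19 end was farther out in 44 domains and farther in in 12, and the opposite end farther out in 122 and farther in in 84. The Fbxl19 end moved less in 84.9% of domains that differed in OE-high (interval 80.8 to 88.4) and in 81.3% in KD ES cells (76.8 to 85.2).

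The comparison sets had similar shares. In differentiated cells the share was 85.8% in the 653 domains, 84.2% in the domains of all 5 lists (interval 80.0 to 87.9) and 85.5% in those absent from both knockdowns (81.3 to 89.1). Of the 522 ends of domains without an Fbxl19 summit at either end, 165 (31.6%) lay within 1 kb of their ES position in differentiated cells. In 30 domains with an Rnf20 midpoint at 1 end and no Fbxl19 summit at either, the Rnf20 end moved less in 20 and more in 9 (69.0%, interval 49.2 to 84.7). The same counts were 20 and 3 for 25 such domains in all 5 lists (87.0%, interval 66.4 to 97.2). They were 19 and 3 for 22 such domains absent from both knockdowns (86.4%, interval 65.1 to 97.1). The ends were picked by their nearness to a summit in the ES list. Whether ends at Fbxl19 are sharper in the signal itself was not tested.

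**Figure D5:**
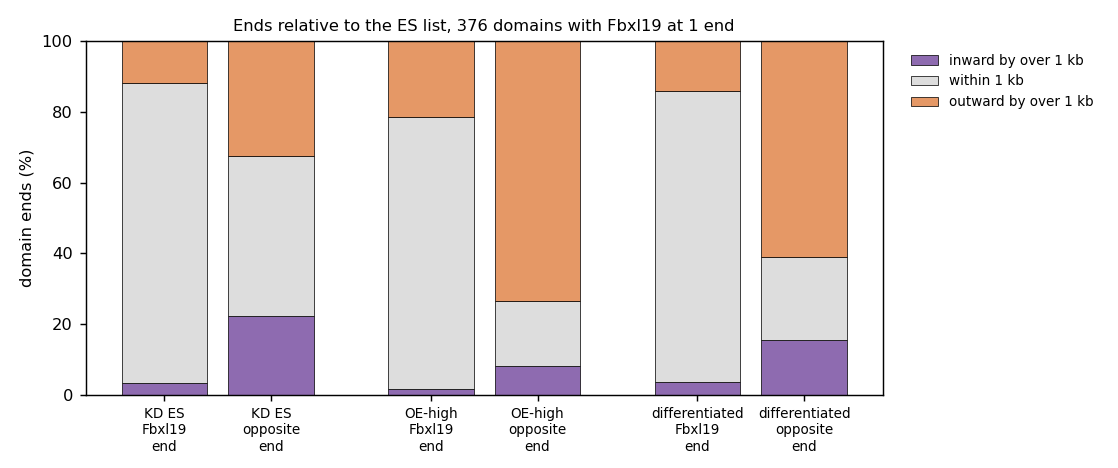
Position of domain ends relative to the ES list (y axis, percent of ends) in KD ES, OE-high and differentiated cells, for the 376 of the 653 domains with an OE-high Fbxl19 summit within 1 kb of 1 end only. Each pair of bars gives the Fbxl19 end and the opposite end, split into inward by over 1 kb, within 1 kb and outward by over 1 kb; in differentiated cells 310 Fbxl19 ends and 88 opposite ends were within 1 kb.

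The 653 domains were spread over all autosomes, with unequal shares. They made up 65 of the 145 ES domains over 2000 bp on chromosome 17 (44.8%, interval 36.6 to 53.3) and 21 of 138 on chromosome 14 (15.2%, 9.67 to 22.3), around a median of 23.1% over autosomes. Chromosomes 11 and 1 held the most, with 110 and 86. Together with chromosome 17 they held 261 of the 653 (40.0%), against 31.6% of all ES domains over 2000 bp. Of the domains in the other 4 lists, 41.3% on chromosome 1 and 44.2% on chromosome 11 were absent from the KD differentiated list, against 65.7% on chromosome 17 and 65.8% on chromosome 4. On chromosome X they were 2 of 32 (6.25%, interval 0.766 to 20.8).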

How the data were processed

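BWA (0.5.9-r16), MACS and mm9 appear in the submitters' processing notes, without roles. Per the file headers, the H2Bub1 lists carry track lines that end in BCP. The authors deposited a score and a length in bp for each domain, a pair of scores for each Fbxl19 peak, of which the first was used throughout, with a position read as its summit, and a score for each Rnf20 peak, with no formula stated. Replicate 3 of OE-high H2Bub1 is tied to no list, and its use is unknown. Groups follow the sample titles.

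Overlap meant 1 bp or more. Intervals of differences add the exact 95% intervals in squares, and those of medians are binomial. Named domains were the highest-scoring, the longest, the richest in Fbxl19, those with Fbxl19 in both clones and Rnf20, those farthest from and nearest to a KD differentiated domain, the longest without peaks, and those at the length limit. Domains, lists and comparisons were chosen with earlier results of these data known. No mm9 genome or annotation was used. Calculations used Python 3.11.15, NumPy 2.4.6, SciPy 1.17.1 and matplotlib 3.10.9, and the code was tested on simulated data.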

Additional observations from a re-analysis of the deposited data

How the results depend on the processing

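Of 157 values under other settings, 125 stayed within the interval, or 1.5 times the count, of the value reported, 29 moved outside it and 3 turned sign. The number of domains, 653, was 56 with all H2Bub1 lists limited to their 1090 highest scores, 376 with the top 50% of ES domains by score and 392 without chromosomes 1, 11 and 17, a setting chosen after seeing the data. With lists of the same size, the share with an OE-high Fbxl19 peak was 83.9%, with an OE-low peak 23.2%, with an Rnf20 peak 50.0% and with a summit at an end 76.8%, the length ratios were 1.28 in OE-high and 1.15 in differentiated cells, and the differences from domains absent from both knockdowns turned to -9.40 for Fbxl19 and -10 for Rnf20. With the top 50% of ES domains, the OE-high share was 81.6%, the share with a summit at an end 68.4%, the KD ES length ratio 1.06 and the Fbxl19 difference from domains absent from both knockdowns 1.42. With the top 50% of each peak list, the shares were 49.3% for OE-high, 9.04% for OE-low, 27.9% for Rnf20 and 36.8% for summits at ends. With summits or midpoints inside the domain, the shares were 64.5% for OE-high Fbxl19 and 38.7% for Rnf20. Without chromosomes 1, 11 and 17 they were 81.4% and 46.9%, and with no length limit OE-high Fbxl19 was at 73.4%. Summits at an end were at 48.2% within 500 bp, 67.4% within 2 kb and 11.03% for OE-low summits, and the Fbxl19 end moved less in differentiated cells in 89.6% within 500 bp. With domains over 5000 bp, the length ratios were 1.45 in OE-high and 1.19 in differentiated cells. With 50% of the ES domain to be covered, the differences from domains in all 5 lists were 2.58 for Fbxl19 and -0.0393 for Rnf20. The cause was not tested.

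No paired analysis was possible because each list combines its replicates, and leaving out replicates was not possible for the same reason. Presence in a list depends on the caller's threshold and on a depth that is unknown, so a domain just under the threshold counts as absent.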
